A study of Mus musculus with 2 samples.

Results

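Cluster 11 is a small group of colon T cells with more Cd7, Klra6, Klra7, Klrd1, Cd160 and Ikzf2 than the other T cell clusters. These genes resemble those of natural intraepithelial lymphocytes, but Itgae, Cd8a and Hcst, also markers of such lymphocytes, were not set apart in this way. The members of cluster 11 are the cells that the authors' deposited metadata number so, which gave 195 of 6886 cells. Of these, 111 were among the 3443 cells of the 5XFAD library and 84 among the 3443 cells of the wild-type (WT) library. The 5XFAD mice carry human transgenes bearing mutations of familial Alzheimer disease under the Thy1 promoter, which is used to drive them in neurons, and the WT mice were their littermates without the transgenes. All mice were females aged 9 months. For each genotype, live CD45+ cells, that is leukocytes, were sorted from dissociated colon after Fc receptor blocking, cells of 3 mice were pooled, and 1 droplet library was made with 10x Chromium 3′ chemistry. The design therefore asks how the colon's leukocytes compare between the genotypes with 1 pooled library on each side. No difference between the libraries has a replicate check, no p-value is given, and each interval covers counting error only.

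Intraepithelial lymphocytes are T cells that settle between the epithelial cells of the gut. The natural kind arises with either an alpha beta or a gamma delta T cell receptor and often carries CD8 as an alpha alpha homodimer, without the beta chain of conventional CD8 T cells. These cells share receptors and adaptor proteins with natural killer (NK) cells, among them killer cell lectin-like receptors that bind MHC class I molecules. Where a cell lay in the tissue was not measured here. The kit used for dissociation is one for the lamina propria, the layer under the epithelium, so the name rests on genes alone.

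The cells of cluster 11 were deep for this data set. Their median was 6031 UMIs (unique molecular identifiers, 1 per captured RNA molecule) and 1994 genes in 5XFAD, and 5905 UMIs and 2111.5 genes in WT, against medians of 5209 and 4938 UMIs over the whole 5XFAD and WT libraries. The cluster totals were 662218 UMIs in 5XFAD and 527070 UMIs in WT. No cell of the 5XFAD library had 2500 genes or more, against 106 cells of the WT library, 10 of them in cluster 11, so the highest number of genes a cell could have differed between the libraries. The median percent of mitochondrial UMIs was 4.29 in 5XFAD and 4.41 in WT. The libraries shared 3 cell barcodes, and none was in cluster 11 in both. B cell RNA also differed: the 12 B cell markers summed to 604 CPM (counts scaled to a total of 1000000) in the 5XFAD cells of cluster 11 and 1406 CPM in the WT cells. At least 5 UMIs of these markers were found in 21 of 111 5XFAD cells and 41 of 84 WT cells. Ratios of named genes that leave their 95% interval without those cells are given with and without them.

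The 6 genes that go with the cluster's name were all higher in cluster 11 than in each of the other T cell clusters, 8, 10, 13 and 14, in both libraries. Because the authors' clusters were made from the same expression values, these levels describe the cluster and are not tested against the others. Cluster 8 has the regulatory T cell gene Foxp3, cluster 13 is rich in the gamma delta receptor gene Trdc, cluster 12 has NK or type 1 innate lymphoid cell genes, and clusters 10 and 14 are other T cell clusters. Cd7, a surface protein of T and NK cells found on chromosome 11 (chr11:121036747-121039418), had 506 CPM in 5XFAD and 465 CPM in WT. The next highest cluster was cluster 12 with 89.6 and 111 CPM in the same libraries. Klrd1 (CD94), a receptor subunit that pairs with NKG2 proteins, lies at chr6:129591782-129598775 and had 805 CPM in 5XFAD and 489 CPM in WT, against 399 and 319 CPM in cluster 12. Klra7, a Ly49 receptor for MHC class I, had 264 CPM in 5XFAD and 178 CPM in WT, against 64.5 and 49.4 CPM in cluster 12.

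Cd160, an immunoglobulin-family receptor at chr3:96798763-96829351, did not separate cluster 11 from NK-like cells. It had 163 CPM in 5XFAD and 171 CPM in WT, next to 188 and 189 CPM in cluster 12. Ikzf2 encodes the transcription factor Helios and lies at chr1:69531214-69687245. It had 1838 CPM in 5XFAD and 1725 CPM in WT, above the 1105 and 999 CPM of cluster 8, the next highest. Ccl5 encodes a chemokine that draws in leukocytes and lies at chr11:83525778-83530518. It had 4856 CPM in 5XFAD and 4546 CPM in WT, and cluster 12, with 6477 and 4037 CPM, lay above cluster 11 in 5XFAD and below it in WT. Of 12 markers of natural intraepithelial T cells, 9 lay above clusters 8, 10, 13 and 14 in both libraries, and Itgae, Cd8a and Hcst did not. Against cluster 12, 5 of the 12 were higher and 5 lower in both libraries, and the list summed to 4893 CPM in 5XFAD and 4472 CPM in WT in cluster 11 against 7634 and 6241 CPM in cluster 12, so these markers were not particular to cluster 11. Over the 3229 genes that had 50 UMIs or more in cluster 11 of both libraries together, 15.9% lay above those 4 clusters in both libraries, 37.4% lay above cluster 12 and 34.5% below it. Over all 32285 genes of the table, with those of few or no UMIs, these shares were 4.12%, 12.1% and 10.1%. Genes with 50 UMIs or more are called measured below, and 8 of the 11 measured intraepithelial markers lay above the 4 clusters. Cd7, Cd160, Ikzf2 and Klra7 belong both to this list and to the 6 genes of the cluster's name. The count of intraepithelial markers is therefore no separate support for the name. Of markers of conventional CD8 T cells 0 of 7 lay above the 4 clusters, and of those of CD4 T cells 0 of 7. Only 4 and 3 of these markers were measured. Beside the shares over all genes, 0 among so few does not set them apart.

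The markers were also widespread among the cells of cluster 11 when each cell was thinned to 3000 UMIs, which left out 0 5XFAD cells and 3 WT cells. Cd7 was then found in 66.7% of 5XFAD cells and 70.4% of WT cells (79.3% and 82.1% without thinning). Ikzf2 was found in 92.8% of 5XFAD and 96.3% of WT cells (96.4% and 97.6% without thinning). Klra7 was found in 31.5% of 5XFAD and 22.2% of WT cells (34.2% and 28.6% without thinning), so a Ly49 gene that sets the cluster apart was seen in a minority of its cells. The B cell clusters 0 to 5, which stand for free RNA, had Ccl5 in 1.63% of 5XFAD and 2.61% of WT cells at the same depth, and less than 1% for each of the other label markers.

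**Figure D1:**
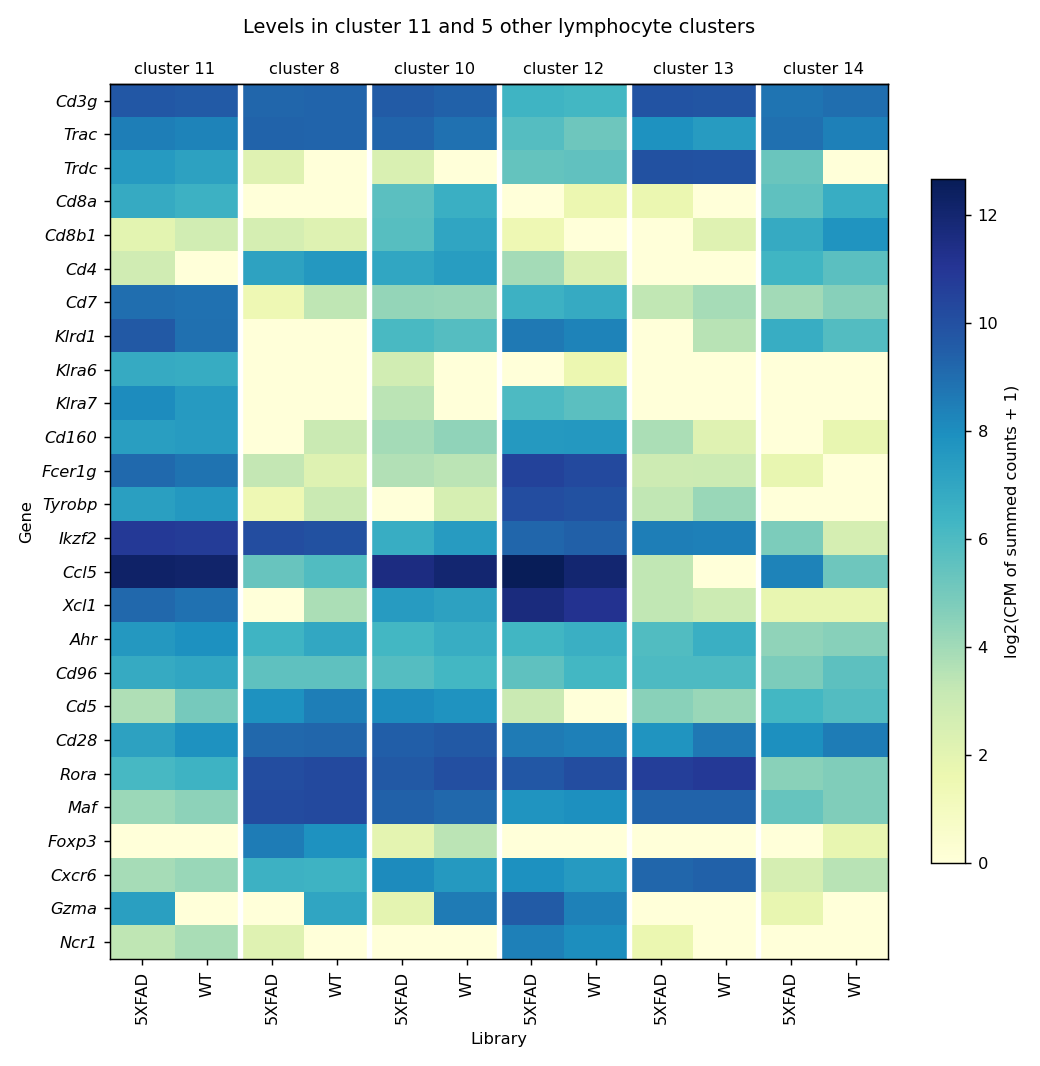
Levels of 26 genes (rows) in cluster 11 and clusters 8, 10, 12, 13 and 14 (columns, 5XFAD left of WT in each pair), as the log2 of CPM of summed counts plus 1, with darker blue for higher levels. Cd7, Klrd1, Klra6 and Klra7 were darker in cluster 11 than in the other T cell clusters, though Klrd1 reached 104 CPM in 5XFAD cells of cluster 14. Rora, Maf and Cxcr6 were paler in cluster 11 than in clusters 8, 10 and 13.

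A wider search placed Klra6 first, followed by Cd7 and Klra7. Of 1100 genes with at least 100 CPM in cluster 11 in both libraries, 101 lay above all 5 compared clusters in both libraries, and 4 did so by at least 1 on the log2 scale in the nearer library: Klra6 (4.29), Cd7 (2.07), Klra7 (1.85) and Swap70 (1.08). Klra6, another Ly49 receptor, had 110.2 CPM in 5XFAD and 106 CPM in WT and at most 5.65 CPM in any compared cluster. Swap70, an adaptor that acts on the cytoskeleton, had 139 CPM in 5XFAD and 118 CPM in WT. Ahr, the aryl hydrocarbon receptor, which intraepithelial lymphocytes need to persist, followed with 190.3 CPM in 5XFAD and 239 CPM in WT, or 0.95 above the nearest cluster on the log2 scale. The other genes in the leading 15 were Bend4, Sft2d2, Plac8, Cd96, Ikzf2, Klhdc2, Tiprl, Atf7ip, Pmepa1 and Klrd1, with differences of 0.62 to 0.91. When each cell counted equally instead of each UMI, 4 genes again passed, with Ahr in place of Swap70.

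Maf, Rora and Icos were among the genes farthest below clusters 8, 10 and 13. Maf, a transcription factor of helper and regulatory cells, had 16.6 CPM in 5XFAD and 20.9 CPM in WT, against 1139 and 1219.8 CPM in cluster 8. Rora, a transcription factor of innate-like lymphocytes, had 71.0 CPM in 5XFAD and 87.3 CPM in WT, against 1589 and 1878 CPM in cluster 13. Icos, a costimulatory receptor, had 78.5 CPM in 5XFAD and 72.1 CPM in WT, against 1142 and 1296 CPM in cluster 13. The difference from the lowest of clusters 8, 10 and 13, in the nearer library, was -4.81 on the log2 scale for Maf, -3.51 for Rora and -3.20 for Icos. S100a4 (-3.88), Ccr2 (-3.75), Tnfsf11 (-3.35), Odc1 (-2.74), Ipmk (-2.54), Lgals1 (-2.48) and Tmem64 (-2.21) made up the rest of the lowest 10. Cluster 14 did not enter this ranking, and some of these genes were lower there than in cluster 11. Rora had 22.3 and 25.2 CPM in the 5XFAD and WT cells of cluster 14, and S100a4 had 16.6 CPM in 5XFAD and 32.3 CPM in WT in cluster 11, against 0 and 2.52 CPM in cluster 14.

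Cluster 11 carried the T cell receptor complex. At least 1 UMI of Cd3d, Cd3e or Cd3g, the signalling chains of the receptor, was found in 109 of 111 5XFAD cells and 82 of 84 WT cells. Cd3g had 838 CPM in 5XFAD and 785 CPM in WT, near the 929.8 and 903 CPM of cluster 13 and above the 82.4 and 76.1 CPM of cluster 12, the NK-like cluster. Of 14 genes of the receptor and CD3 complex, 12 were above cluster 12 in both libraries and 0 were below it in both. Over all genes of the table these shares were 12.1% and 10.1%. Trac, the constant region of the alpha chain (chr14:54220521-54224206), had 352 CPM in 5XFAD and 324 CPM in WT, below the 638 and 609 CPM of cluster 8 and above the 228 and 173 CPM of cluster 13. Trdc, the constant region of the delta chain (chr14:54142851-54148868), had 181 CPM in 5XFAD and 146 CPM in WT, below the 997 and 968 CPM of cluster 13 and above every other compared cluster, whose highest value was 45.2 CPM. The cluster thus held RNA of both receptor types. Trbc1, a beta chain constant region, had 789.8 CPM in 5XFAD and 779.8 CPM in WT, a log2 ratio of 5XFAD over WT of 0.02, or -0.27 without the cells with B cell UMIs. Trbc2, the other one, had 1043 CPM in 5XFAD and 987 CPM in WT. They do not mark alpha beta cells here, since cluster 12 had 645 and 559 CPM of Trbc1, and 16.2% of the 50-base words in the last 500 bases of Trbc1 also occur in Trbc2.

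Among the coreceptors, Cd8a was higher than in clusters 10 and 14 in 5XFAD and near their level in WT, while Cd8b1 and Cd4 were almost absent. Cd8a, the alpha chain of CD8 (chr6:71373427-71379173), had 110.2 CPM in 5XFAD and 91.1 CPM in WT, next to 49.4 and 94.8 CPM in cluster 10 and 47.1 and 103 CPM in cluster 14. It was found in 27 of 111 5XFAD cells and 22 of 84 WT cells. Cd8b1, the beta chain, had 3.02 CPM in 5XFAD and 5.69 CPM in WT, against 109 and 215 CPM in cluster 14. Cells with Cd8a and no Cd8b1 were 26 of 111 in 5XFAD (23.4%) and 20 of 84 in WT (23.8%). Cd4 was found in 1 5XFAD cell, with 4 UMIs, and in 0 of 84 WT cells, with a Clopper-Pearson interval of up to 4.30%. No UMI of Cd8a was found in most cells, and a share of cells with a UMI is a lower limit on the cells that use the gene.

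Cd5 and Cd28 were lower than in clusters 8 and 10. Cd5, an inhibitor of receptor signalling, had 12.1 CPM in 5XFAD and 30.4 CPM in WT, against 229 and 353 CPM in cluster 8 and 260.0 and 222 CPM in cluster 10. Cd28, the main costimulatory receptor of conventional T cells, had 143 CPM in 5XFAD and 228 CPM in WT, against 571 and 591 CPM in cluster 8 and 718 and 827 CPM in cluster 10. Of 13 measured T cell receptor signalling genes, 2 lay above clusters 8, 10, 13 and 14 in both libraries, Ptpn22 and Skap1, which is close to the 15.9% over all measured genes. Ptpn22, a phosphatase that dampens the receptor signal, had 747 CPM in 5XFAD and 601 CPM in WT.

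The killer cell lectin-like genes formed the longest of the receptor lists, by number of genes and not by level. Of the 23 members in the table, 13 lay above all of clusters 8, 10, 13 and 14 in both libraries, and 15 lay below cluster 12 in both. Of the 11 measured members, 10 lay above the 4 clusters and 6 below cluster 12, beside 15.9% and 34.5% of all measured genes. Klrd1 and Klra7, counted here, also belong to the genes of the cluster's name. All 23 lie on mouse chromosome 6, within chr6:122270596-130386874 of GRCm38, a stretch that holds the natural killer gene complex. Klrc1 encodes the inhibitory NKG2 partner of CD94 and had 112 CPM in 5XFAD and 98.7 CPM in WT. Klrc2 encodes an activating partner and had 179.7 CPM in 5XFAD and 154 CPM in WT. Reads of this pair may be split between them, since 56.3% of the 50-base words in the last 500 bases of Klrc1 also occur in Klrc2. Klrk1 encodes the activating receptor NKG2D and had 255 CPM in 5XFAD and 269 CPM in WT, below the 819 and 927 CPM of cluster 13. Among the lower Ly49 genes, Klra1 had 55.9 CPM in 5XFAD and 89.2 CPM in WT and Klra5 had 51.3 CPM in 5XFAD and 34.2 CPM in WT. Klrg1, a marker of late effector cells, had 0 UMIs in both libraries.

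Klra6 and Klra7 were the Ly49 genes that best separated the cluster, and they were partly found in the same cells. Any Klra gene was found in 63 of 111 5XFAD cells and 47 of 84 WT cells, and at least 2 different ones in 34 5XFAD cells and 23 WT cells. In 5XFAD, Klra7 was found in 20 of 33 cells with Klra6 (60.6%, 95% interval 42.1 to 77.1) and in 18 of 78 cells without it (23.1%, 14.3 to 34.0). In WT, it was found in 9 of 24 cells with Klra6 (37.5%, 18.8 to 59.4) and in 15 of 60 cells without it (25%, 14.7 to 37.9). The intervals lay apart in 5XFAD and overlapped in WT. Cells with Klra6 were slightly deeper, with median UMIs of 6579 against 5982 in 5XFAD and 6047.5 against 5815.5 in WT. Klra7 shares 27.5% of the 50-base words in its last 500 bases with the pseudogene Klra13-ps, and Klra6 shares 14 of 451 such words with other genes, so reads of Klra7 could be split and its level is uncertain.

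Since Klra6 and Klra7 were the Ly49 genes that best separated the cluster, their promoter windows from RefSeq (GRCm38.p6, 250 bases before to 50 after the start site) are shown here. The Klra6 window is chr6:130026905-130027204 and the Klra7 window shown is chr6:130233273-130233572, both on the minus strand, written 5′ to 3′. RefSeq has a second Klra7 window at chr6:130231638-130231937, which lacks the run marked here and has 46.5% identity to the Klra6 window. Capitals mark the longest run that the windows share, which begins 119 bases before the Klra6 start and 89 bases before the Klra7 start.
Klra6: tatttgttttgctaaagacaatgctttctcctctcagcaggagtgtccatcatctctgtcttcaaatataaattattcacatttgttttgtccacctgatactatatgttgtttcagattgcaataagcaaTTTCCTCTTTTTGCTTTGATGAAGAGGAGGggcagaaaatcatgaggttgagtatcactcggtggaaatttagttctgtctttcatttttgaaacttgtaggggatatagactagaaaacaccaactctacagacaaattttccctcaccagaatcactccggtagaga
Klra7: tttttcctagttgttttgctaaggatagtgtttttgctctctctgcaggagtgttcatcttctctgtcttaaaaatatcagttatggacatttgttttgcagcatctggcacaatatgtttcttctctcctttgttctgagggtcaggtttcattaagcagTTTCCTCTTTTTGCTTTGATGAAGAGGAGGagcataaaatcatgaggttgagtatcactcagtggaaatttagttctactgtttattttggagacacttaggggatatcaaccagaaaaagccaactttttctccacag
The windows shown agree at 226 of 330 aligned columns (68.5%). The shared run of 30 bases occurs in 2 of 32851 promoter windows in the RefSeq table, those of Klra6 and Klra7, and in none of the windows of the other Klra genes, of which 11 have a window in all. The letters TGTGGT, a core read by RUNX proteins, were searched on both strands and were in none of these windows, while 16.8% of all windows hold them. These matches describe the reference sequence, and no binding was measured.

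The adaptors that carry activating signals in NK cells were high. Fcer1g, the Fc receptor gamma chain, had 548 CPM in 5XFAD and 455 CPM in WT, against at most 11.3 CPM in the other T cell clusters and 1447 and 1232 CPM in cluster 12. Tyrobp (DAP12), an adaptor for several killer receptors, had 156 CPM in 5XFAD and 189.7 CPM in WT, against at most 16.9 CPM in the other T cell clusters. At 3000 UMIs per cell, Fcer1g was found in 63.1% of 5XFAD and 60.5% of WT cells of cluster 11, and in 0.774% and 0.652% of cells of the B cell clusters. Of the 4 measured adaptor genes, Fcer1g and Tyrobp were above the other T cell clusters in both libraries, and all 4 were below cluster 12, where the shares over all measured genes were 15.9% and 34.5%. Markers that define NK or type 1 innate lymphoid cells stayed far lower: Ncr1, the activating receptor NKp46, had 9.06 CPM in 5XFAD and 13.3 CPM in WT, against 346 and 253 CPM in cluster 12. The 9 NK or ILC1 markers summed to 722 CPM in 5XFAD and 653 CPM in WT cells of cluster 11, and to 3776 and 3012 CPM in cluster 12.

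Of 19 measured lymphocyte transcription factors, 5 were above clusters 8, 10, 13 and 14 in both libraries, beside 15.9% of all measured genes: Ikzf2, Tcf7, Ahr, Nr4a2 and Sox4. The count itself sets no group of factors apart. Tcf7, the factor TCF-1 that keeps T cells renewable, had 278 CPM in 5XFAD and 359 CPM in WT. Nr4a2, a nuclear receptor induced by receptor signalling, had 509 CPM in 5XFAD and 599.5 CPM in WT. Runx3, which sustains CD8 and cytotoxic genes, had 275 CPM in 5XFAD and 159 CPM in WT. Foxp3, which defines regulatory T cells, and Zfp683, the resident cell factor Hobit, had 0 UMIs in both libraries.

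Genes of residence in the epithelium gave a mixed picture. Of 29 such genes, 10 lay above the other T cell clusters in both libraries, among them Cd7, Cd160, Ahr, Gpr55, Itga1, Itga4, Epcam and Cdh1, and of the 14 measured ones 7 did. Over all measured genes the share was 15.9%, and Cd7 and Cd160 also belong to the genes of the cluster's name. Gpr55, a lipid receptor of intraepithelial lymphocytes, had 202 CPM in 5XFAD and 233 CPM in WT. Itgae encodes the alpha E integrin (CD103) that binds E-cadherin on epithelial cells, and had 54.4 CPM in 5XFAD and 49.3 CPM in WT, below the 71.6 and 87.8 CPM of cluster 8. Cdh1, which encodes E-cadherin itself, had 40.8 CPM in 5XFAD and 37.9 CPM in WT. Epcam, another adhesion gene of epithelium, had 42.3 CPM in 5XFAD and 39.8 CPM in WT. They supplied most of the epithelial marker sum of 103 CPM in 5XFAD and 85.4 CPM in WT, and the other 10 epithelial markers had at most 6.04 CPM. Cxcr6, a chemokine receptor of resident lymphocytes, had 13.6 CPM in 5XFAD and 17.1 CPM in WT, against 607 and 670.0 CPM in cluster 13.

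Most effector genes were lower than in the NK-like cluster. Xcl1, a chemokine for cross-presenting dendritic cells, had 574 CPM in 5XFAD and 472 CPM in WT, against at most 172 CPM in clusters 8, 10, 13 and 14 and 3226 and 2299 CPM in cluster 12. Nkg7, a protein of cytotoxic granules, had 603 CPM in 5XFAD and 548 CPM in WT. Of 19 cytotoxic genes, 6 were above the other T cell clusters in both libraries, 0 were above cluster 12 and 15 were below it, and of the 12 measured ones the counts were 4, 0 and 10. Over all measured genes the shares were 15.9%, 37.4% and 34.5%. Prf1, which encodes perforin, had 21.1 CPM in 5XFAD and 30.4 CPM in WT, and Ifng had 36.2 CPM in 5XFAD and 26.6 CPM in WT. Kit, a receptor tyrosine kinase of mast cells and innate lymphoid cells, had 261 CPM in 5XFAD and 218 CPM in WT and was above clusters 8, 10, 13 and 14 in both libraries. The other 6 mast cell markers were at 0.

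Markers of other cell types were low beside those of T cells. The 12 myeloid markers summed to 81.5 CPM in 5XFAD and 70.2 CPM in WT, and 6 of them, among them Csf1r and Adgre1, were at 0. The 7 plasma cell markers summed to 189 CPM in 5XFAD and 237 CPM in WT. For scale, the 12 B cell markers summed to 28662 CPM in 5XFAD and 27114 CPM in WT in the B cell clusters, against the 604 and 1406 CPM in cluster 11.

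Within cluster 11, most cells had Trac and a smaller group had Trdc. Trac was found in 81 of 111 5XFAD cells (73.0%, 95% interval 63.7 to 81.0) and 62 of 84 WT cells (73.8%, 63.1 to 82.8). Trdc was found in 33 5XFAD cells (29.7%, 21.4 to 39.1) and 21 WT cells (25%, 16.2 to 35.6). The intervals of the libraries overlap for both genes. Both genes were found in 8 5XFAD and 9 WT cells, and neither in 5 5XFAD and 10 WT cells. Clusters 8 and 10 had Trdc in at most 1.68% of their cells, cluster 12 had it in 10.8% of 5XFAD and 9.09% of WT cells, cluster 14 in 13.3% and 0%, and cluster 13 in 57.9% and 57.1%. Gamma chain variable segments (Trgv) were found in 63 5XFAD cells (56.8%, 47.0 to 66.1) and 36 WT cells (42.9%, 32.1 to 54.1), near the 52.6% and 46.9% of cluster 13 and above the 12.6% and 5.61% of cluster 10. Gamma chain variable segments were thus found in more cells of cluster 11 than Trdc was. Delta chain variable segments (Trdv) were rarer, in 9.91% of 5XFAD cells and 4.76% of WT cells, below the 48.7% and 40.8% of cluster 13 and the 38.2% and 14.8% of cluster 12.

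Cd8a and Klra6 were found more often in cells with Trac and no Trdc, called Trac alone here, than in cells with Trdc. Cells with both genes, 8 in 5XFAD and 9 in WT, were counted among those with Trdc. Cd8a was found in 2 of 33 5XFAD cells with Trdc (6.06%, 0.743 to 20.2) and in 25 of 73 with Trac alone (34.2%, 23.5 to 46.3). In WT it was found in 0 of 21 cells with Trdc, an interval of up to 16.1%, and in 18 of 53 with Trac alone (34.0%, 21.5 to 48.3). The intervals lay apart in each library. Klra6 was found in 3 of 33 5XFAD cells with Trdc (9.09%, 1.92 to 24.3) and in 27 of 73 with Trac alone (37.0%, 26.0 to 49.1). In WT, Klra6 was found in 1 of 21 cells with Trdc (4.76%, 0.120 to 23.8) and in 20 of 53 with Trac alone (37.7%, 24.8 to 52.1). The intervals were again apart in both libraries. Klra7 was found in 4 of 33 5XFAD cells with Trdc (12.1%, 3.40 to 28.2) and in 31 of 73 with Trac alone (42.5%, 31.0 to 54.6), while in WT the shares of 5 of 21 (23.8%, 8.22 to 47.2) and 16 of 53 (30.2%, 18.3 to 44.3) overlapped. Depth was alike, with median UMIs of 6028 in 5XFAD and 5843 in WT cells with Trdc, and 6031 in 5XFAD and 6078 in WT cells with Trac alone.

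Cd7 and the adaptor gene Fcer1g were at similar levels in both receptor classes. Cd7 had 477 CPM in 5XFAD and 482 CPM in WT cells with Trdc, and 511 and 479 CPM in cells with Trac alone. Fcer1g had 584 and 489 CPM in 5XFAD and WT cells with Trdc, and 529 and 453 CPM in cells with Trac alone. Klra7 was not shared in this way, with 92.3 and 103 CPM in 5XFAD and WT cells with Trdc, and 344 and 211 CPM in cells with Trac alone. Thy1, a surface protein of T cells, was higher in cells with Trdc, with levels of 210.2 and 221 CPM in 5XFAD and WT, than in cells with Trac alone, with 80.2 and 133 CPM. Xcl1 followed the same order, with 871 and 703 CPM in 5XFAD and WT cells with Trdc and 463 and 436 CPM in cells with Trac alone. Ikzf2 had the opposite order, with 1471 and 1413 CPM in cells with Trdc and 1974 and 1788 CPM in cells with Trac alone. These splits were made on receptor genes within a cluster and are descriptions with no test.

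**Figure D2:**
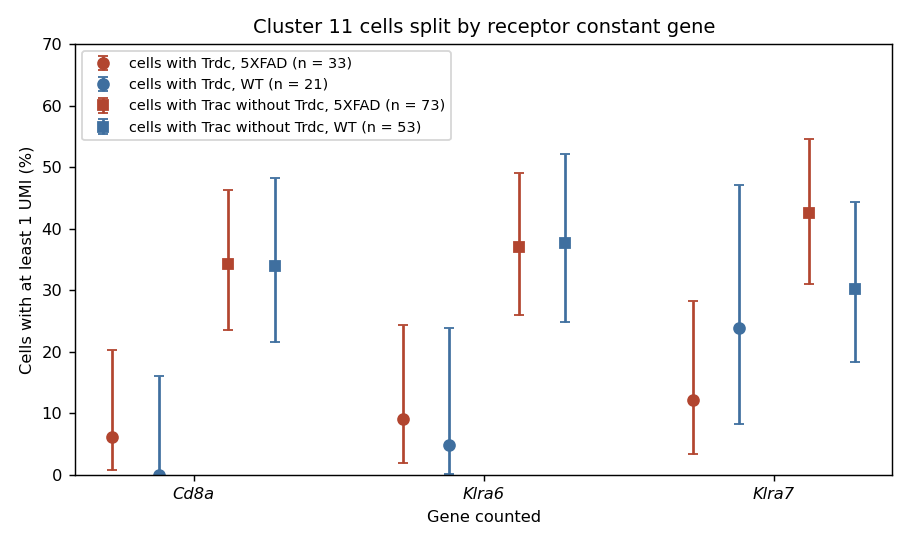
Percent of cluster 11 cells with at least 1 UMI of Cd8a, Klra6 or Klra7, in cells with Trdc, with or without Trac (circles), and in cells with Trac and no Trdc (squares), 5XFAD in red and WT in blue, with 95% Clopper-Pearson intervals as bars. Cd8a was found in 6.06% of 5XFAD and 0% of WT cells with Trdc, against 34.2% and 34.0% of cells with Trac alone, and Klra6 followed the same order in both libraries.

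The cluster's share of cells was somewhat larger in the 5XFAD library. It made up 3.22% of 5XFAD cells (2.66 to 3.87) and 2.44% of WT cells (1.95 to 3.01), a log2 ratio of 0.40 with an interval of -0.02 to 0.83 that takes in no difference. Most cells in both libraries were B cells, so the share was also taken without clusters 0 to 5, where it was 10.3% in 5XFAD and 9.28% in WT, with a log2 ratio of 0.15. Without the cells of 2500 genes or more, counts were 111 in 5XFAD and 74 in WT and the log2 ratio was 0.54 (0.10 to 0.98). When cells with at least 5 B cell marker UMIs were left out of the cluster and all 3443 cells of each library were kept below, counts were 90 in 5XFAD and 43 in WT and the log2 ratio was 1.07 (0.53 to 1.62). The higher ratio follows from the filter, which took 21 of 111 5XFAD cells and 41 of 84 WT cells. The part of B cell RNA in the share itself was not tested.

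Few genes differed by much between the libraries in cluster 11. Of the same 3229 genes, 39 were higher in 5XFAD by at least 1 on the log2 scale (1.21%) and 53 were lower by as much (1.64%). The median log2 ratio over all 3229 genes was -0.01, with 1598 genes above 0 and 1631 below. These shares are the background for the counts that follow.

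The genes of the cluster's own programme were close between the libraries, with Klrd1 and Klra7 somewhat higher in 5XFAD. Klrd1 had a log2 ratio of 0.72 (95% interval 0.50 to 0.94). It was also higher in 5XFAD in cluster 14 (0.84), cluster 12 (0.33) and cluster 10 (0.29). Klra7 had a log2 ratio of 0.57 (95% interval 0.20 to 0.94), and 1.10 without the cells with B cell UMIs. In cells with Trac alone, Klrd1 had 921 CPM in 5XFAD and 401 CPM in WT, and Klra7 had 344 and 211 CPM. In cells with Trdc, Klrd1 had 574 and 639 CPM and Klra7 had 92.3 and 103 CPM, not higher in 5XFAD. Cells with neither Trac nor Trdc, 5 in 5XFAD and 10 in WT, had 622 and 708 CPM of Klrd1. Their Klra7 levels were 229 and 149 CPM. Cd7 (0.12), Ikzf2 (0.09) and Cd160 (-0.07) had ratios near 0. Ccl5 had 0.10 (95% interval 0.02 to 0.17), and -0.084 without the cells with B cell UMIs.

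Among the 11 measured killer cell lectin-like genes, 7 were higher and 4 lower in 5XFAD, with a median log2 ratio of 0.18. This median is not stable in sign, since it was -0.04 without the cells of 2500 genes or more and -0.17 without the cells with B cell UMIs. Only Klri2, part of a receptor with Klre1, passed 1 in either direction, with 24.2 CPM in 5XFAD and 66.4 CPM in WT in 8 and 10 cells. All measured genes of the receptor and CD3 complex but 1 were higher in 5XFAD (11 of 12), with a median of 0.17 and none past 1. Cd247, the zeta chain, led them with 125 CPM in 5XFAD and 72.1 CPM in WT and a log2 ratio of 0.80 (95% interval 0.23 to 1.39). Cd3e followed, at 0.57 (95% interval 0.32 to 0.82).

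Of the leading genes in each direction, Atp5md and Lars2 differed alike in every compared cluster. Atp5md, which belongs to the ATP synthase of mitochondria, had 652 CPM in 5XFAD and 294 CPM in WT, with 1.15 (95% interval 0.88 to 1.42) in cluster 11 and 0.65 to 1.18 in the others, and 1.53 in cluster 11 without the cells with B cell UMIs. Lars2, the mitochondrial leucyl-tRNA synthetase, had 989 CPM in 5XFAD and 2047 CPM in WT, with -1.05 (95% interval -1.19 to -0.91) in cluster 11 and -1.16 to -0.80 in the others, and -1.19 in cluster 11 without those cells. With all cells, the ratios of both genes in cluster 11 lay within the range of the other clusters.

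Of the other genes higher in 5XFAD, some were higher in every compared cluster and some were not. Tnfrsf9 (4-1BB), a costimulatory receptor induced on activated T cells, had 179.7 CPM in 5XFAD and 75.9 CPM in WT. Its log2 ratio was 1.24 (95% interval 0.72 to 1.80) in cluster 11 and 0.47 to 0.70 in the other clusters. The intervals of clusters 10, 13 and 14 took in 0. In cluster 11, Tnfrsf9 was found in 48 of 111 5XFAD cells and 22 of 84 WT cells. Its ratio there was 1.91 without the cells with B cell UMIs. Cd84, an adhesion receptor of the SLAM family, had 71.0 CPM in 5XFAD and 24.7 CPM in WT and a ratio of 1.52 (95% interval 0.62 to 2.54), with -0.84 to -0.29 in the other clusters. Whether these ratios differ between clusters was not tested. Babam2, a subunit of a deubiquitinating complex in DNA repair, had 69.5 CPM in 5XFAD and 22.8 CPM in WT and a ratio of 1.61 (95% interval 0.67 to 2.66). Nmt1, which adds myristate to proteins, had 143 CPM in 5XFAD and 60.7 CPM in WT and a ratio of 1.24 (95% interval 0.65 to 1.87). The other genes in this group were Bloc1s1 (1.51), Cwf19l2 (1.42), Fmc1 (1.56), Cct6a (0.96), Ndufb1-ps (0.97) and Rnaset2b (1.02). Ndufb1-ps was also higher in 5XFAD in every compared cluster (0.58 to 1.17), with each interval above 0. Rnaset2b (0.48 to 1.18), Bloc1s1 (0.50 to 1.39) and Nmt1 (0.15 to 1.57) had positive ratios in all of them, with some intervals that took in 0. Babam2, Cwf19l2, Fmc1 and Cct6a pointed both ways. For Nmt1, Fmc1, Cct6a, Ndufb1-ps and Rnaset2b at least 1 compared cluster had a higher ratio than cluster 11, up to 2.97 for Fmc1 in cluster 14. Of the Cct6a UMIs in 5XFAD, 38 of 242 came from 1 cell, and Rnaset2b shares 87.6% of the 50-base words in its last 500 bases with Rnaset2a, so its level is uncertain. Without the cells with B cell UMIs the Rnaset2b ratio was 1.66.

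Of the genes lower in 5XFAD, Rel and Zbtb20 were well counted beside Lars2, with 199 UMIs in 5XFAD and 287 in WT for Rel and 85 UMIs in 5XFAD and 134 in WT for Zbtb20, and the others had 13 to 45 UMIs in 5XFAD and 35 to 79 in WT. Lyst, a regulator of lysosome and cytotoxic granule size, had 13 UMIs in 5XFAD and 46 in WT, or 19.6 CPM in 5XFAD and 87.3 CPM in WT, a log2 ratio of -2.15 (95% interval -3.17 to -1.24). Its ratio was -1.07 to 0.08 in the other clusters. Rel, a subunit of NF-kappa B that acts downstream of the T cell receptor, had 301 CPM in 5XFAD and 545 CPM in WT and a ratio of -0.86 (95% interval -1.13 to -0.59). It was found in 66 of 111 5XFAD cells and 68 of 84 WT cells. Gbp4, an interferon-induced GTPase, had 33.2 CPM in 5XFAD and 94.9 CPM in WT and a ratio of -1.51 (95% interval -2.31 to -0.76). Zbtb20, a transcriptional repressor, had 128 CPM in 5XFAD and 254 CPM in WT and a ratio of -0.99 (95% interval -1.40 to -0.58), but -0.43 without the cells with B cell UMIs. The others were Fbxo34 (-1.78, with 22 of its 60 WT UMIs in 1 cell), Vars (-1.62), Tlk2 (-1.40), Tex2 (-1.40), Arhgap30 (-1.14), Klri2 (-1.46) and Fam129a (-1.36).

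**Figure D3:**
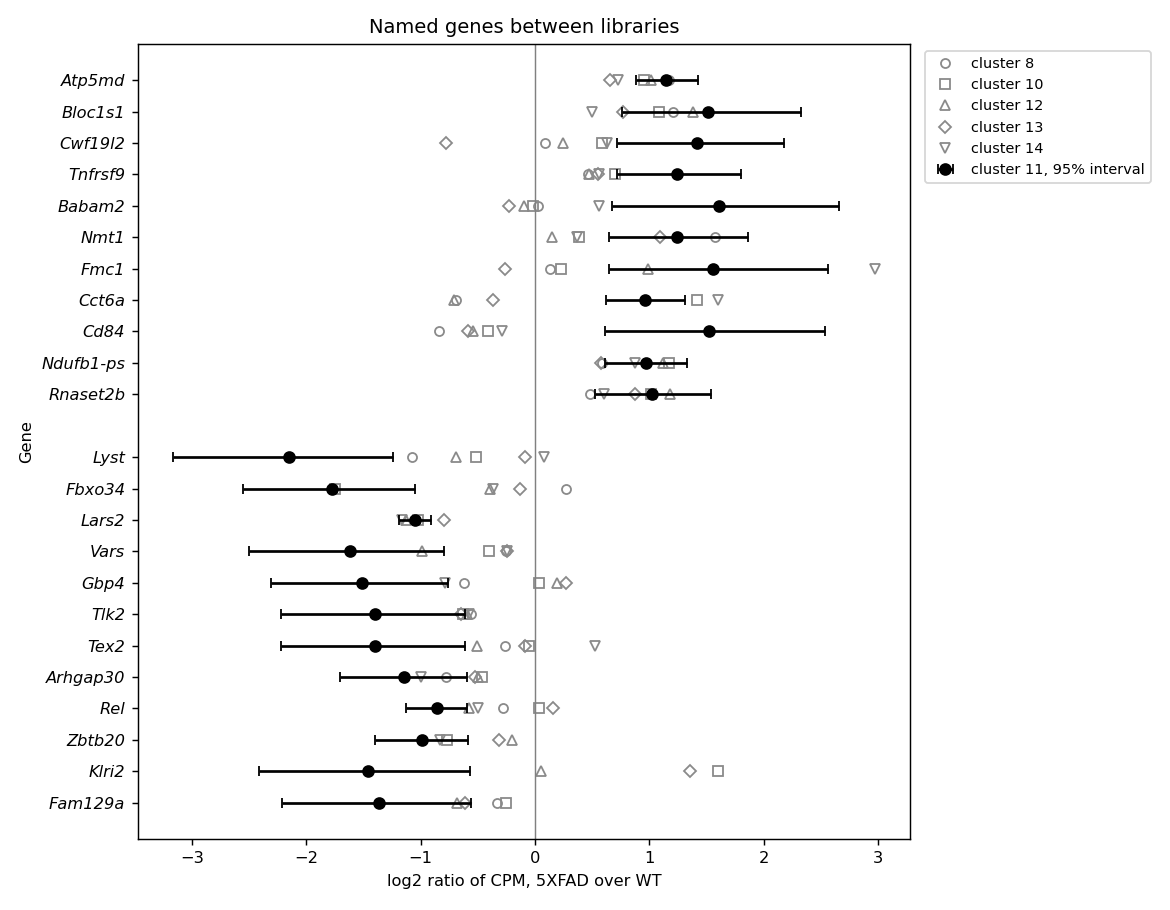
Log2 ratio of CPM, 5XFAD over WT, for the 11 genes higher and the 12 lower in 5XFAD in cluster 11 that are named here, chosen for the interval farthest from 0, with 95% intervals for cluster 11 (black) and the ratios of clusters 8, 10, 12, 13 and 14 (open grey symbols, left out where a library had no UMI). Atp5md and Lars2 had ratios in the other clusters close to those in cluster 11, while the Cd84 ratio of 1.52 in cluster 11 stood apart from -0.84 to -0.29 in the others.

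The clearest difference over a whole list was in oxidative phosphorylation. Of 42 measured nuclear genes of the mitochondrial respiratory chain and ATP synthase, 40 were higher and 2 lower in 5XFAD, with a median log2 ratio of 0.37 against -0.01 over all genes. Only Atp5md passed 1. Cox7c, a subunit of cytochrome c oxidase, had 759.6 CPM in 5XFAD and 472 CPM in WT (0.69 on the log2 scale). Cox6c, another subunit, had 467 CPM in 5XFAD and 292 CPM in WT (0.68). Cox4i1 went the other way, with 519 CPM in 5XFAD and 554 CPM in WT (-0.09). The list summed to 11714 CPM in 5XFAD and 9005 CPM in WT in cluster 11. The same order was found in cluster 8 (11199 and 9081 CPM), cluster 12 (12361 and 9763 CPM) and the B cell clusters (10063 and 7413 CPM), so it was seen across cell types of these libraries.

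Genes of circulation and tissue exit leaned the other way. All 12 measured members were lower in 5XFAD, with a median log2 ratio of -0.31, and none passed -1. Klf2, which keeps T cells circulating, had 246 CPM in 5XFAD and 385 CPM in WT and a ratio of -0.65 (95% interval -0.95 to -0.34). Of its 203 UMIs in WT, 35 came from 1 cell. With its highest cell dropped on both sides, the Klf2 ratio was -0.47, still within that interval. Klf2 was found in 52 of 111 5XFAD cells (46.8%) and 36 of 84 WT cells (42.9%), so the share of cells was not lower in 5XFAD. In the other clusters Klf2 pointed both ways, from -1.84 in cluster 13 to 1.11 in cluster 8. Klf3 had 166 CPM in 5XFAD and 271 CPM in WT and a ratio of -0.71 (95% interval -1.08 to -0.34). Cxcr4, a chemokine receptor, had 118 CPM in 5XFAD and 119.5 CPM in WT and a ratio of -0.02, but 1.07 without the cells with B cell UMIs. The cluster's B cell marker sum was also lower in 5XFAD (604 CPM) than in WT (1406 CPM), and its part in these ratios was not tested. The median of the list was -0.36 without the cells with B cell UMIs and -0.09 without those of 2500 genes or more.

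Type I interferon response genes were also mostly lower in 5XFAD. Of 8 measured members, 2 were higher and 6 lower, with a median of -0.42 and none past 1. Samhd1, a restriction factor that lowers nucleotide pools, had 112 CPM in 5XFAD and 173 CPM in WT and a ratio of -0.63 (95% interval -1.09 to -0.17). Isg15, a ubiquitin-like protein, had 36.2 CPM in 5XFAD and 58.8 CPM in WT (-0.70). Among 10 measured cytokine receptor genes, 3 were higher and 7 lower, with a median of -0.22. Il18rap, a chain of the interleukin 18 receptor, had 31.7 CPM in 5XFAD and 72.1 CPM in WT and was the only one past 1, at -1.18 (95% interval -2.03 to -0.38). Il2rb, the chain shared by the interleukin 2 and interleukin 15 receptors, had 334 CPM in 5XFAD and 402 CPM in WT (-0.27).

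The remaining lists had medians of -0.12 to 0.30. The 19 measured transcription factors had 8 higher and 11 lower (median -0.12), and the largest ratio among them was that of Runx3, at 0.79 (95% interval 0.41 to 1.18), which was 0.42 in cluster 12 and -0.46 in cluster 10. The 14 measured residence genes had 6 higher and 8 lower (median -0.11). Spry2, an inhibitor of kinase signalling, was the only one past 1, with 142 CPM in 5XFAD and 70.2 CPM in WT. The 28 measured immediate early and dissociation genes had 13 higher and 15 lower (median -0.09), among them Atf3 at -1.47. The 19 measured genes of MHC class I presentation had 6 higher and 13 lower (median -0.11). Nlrc5, the activator of MHC class I genes, was the only one past 1 among these, with 25.7 CPM in 5XFAD and 66.4 CPM in WT. The 13 measured T cell receptor signalling genes had 9 higher and 4 lower (median 0.05), the 6 other inhibitory receptors 4 higher and 2 lower (median 0.30), and the 4 innate adaptor genes 2 and 2 (median 0.02). Of the 2 measured coreceptor genes, Cd8a was higher (0.28) and Thy1 lower (-0.24). Apoe, a lipid carrier tied to Alzheimer disease, had only 21.1 CPM in 5XFAD and 20.9 CPM in WT.

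**Figure D4:**
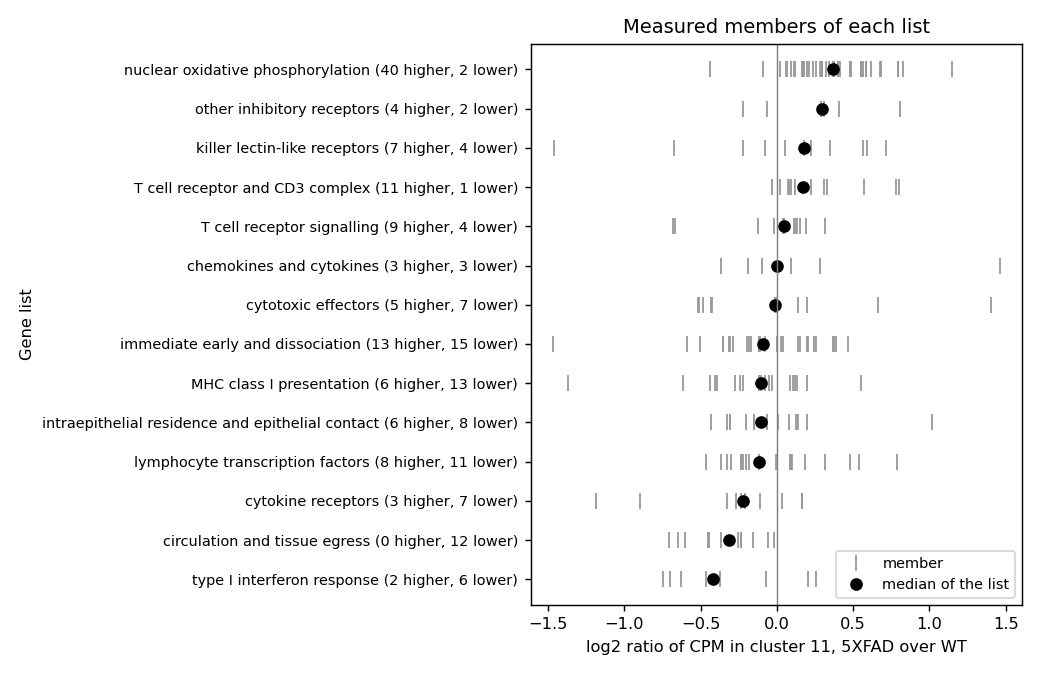
Log2 ratio of CPM in cluster 11, 5XFAD over WT, for each measured member (ticks) of the lists with at least 5 of them, with the median as a black dot and the counts of higher and lower members in the row names. Oxidative phosphorylation had 40 of 42 members above 0 and the circulation list 0 of 12, while the other medians lay between -0.42 and 0.30; Gzma, with 0 UMIs in WT, is not drawn.

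Cytotoxic genes held the largest single difference, and it came from very few cells. Of 12 measured members, 5 were higher and 7 lower in 5XFAD (median -0.01), with Gzma and Gzmb past 1. Gzma, which encodes the serine protease granzyme A, had 104 UMIs in 5XFAD and 0 UMIs in WT, which against a floor of 3 counts in the WT cells is at least 27.6-fold higher in 5XFAD. All 104 UMIs were in 3 cells, and 99 of them were in 1 cell. That cell had 8393 UMIs and 2289 genes. It also held 39 UMIs of Gzmb, 126 of Ccl5, 8 of Cd8a, 4 of Cd4 and 4 of Trac. It held none of Trdc, Cd8b1, Klra6 or Klra7, and the other Klra genes were not looked up in it. Without it, Gzma had 5 UMIs in 2 cells.

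Gzmb, which encodes granzyme B, had 156 CPM in 5XFAD and 58.8 CPM in WT, a log2 ratio of 1.40 (95% interval 0.81 to 2.03). Without the same cell its ratio was 0.73 (0.09 to 1.40). Among 6 measured chemokine and cytokine genes, 3 were higher and 3 lower (median -0.00), and only Ccl4, a chemokine of activated T and NK cells, passed 1. Ccl4 had 142 UMIs in 5XFAD and 41 in WT, a ratio of 1.46 with a lower bound of 0.95, but 96 of the 142 UMIs in 5XFAD came from another single cell. Ctsw, a cysteine protease of cytotoxic cells, was less tied to single cells, with 367 CPM in 5XFAD and 231 CPM in WT in 88 of 111 5XFAD cells and 61 of 84 WT cells and a ratio of 0.66 (95% interval 0.35 to 0.99).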

How the data were processed

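Single-cell RNA-seq libraries of sorted colon CD45+ cells, 1 per genotype, were read from the deposited tables. Cell Ranger 6.0.1 and the mm10 genome are named in the submitters' processing notes. Filters and clustering settings were not given in the sources used here. In the RNA table the authors deposited the natural log of 1 plus the UMIs scaled to 10000 for each cell. The deposited counts of UMIs and genes per cell, the percent of mitochondrial UMIs computed by the authors, and the cluster numbers 0 to 16 came from the metadata. The library labelled AD there was taken as 5XFAD, as the only one not named WT. Inverting the log with the deposited totals gave whole counts for 100% of 11758401 nonzero values (within 1e-06), and in 6886 of 6886 cells their sum equalled the deposited total. A second deposited table, natural log values of depth-corrected counts, served as an alternative.

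Counts were summed over the cells of a cluster and library and scaled to CPM by that sum's total. Ratios are 5XFAD over WT on the log2 scale with exact conditional binomial 95% intervals, and shares have Clopper-Pearson 95% intervals, both for counting error only. Molecules were counted by UMI. A gene was measured where it had at least 50 UMIs in the libraries together. A ratio past 1 or -1 was called, and 3 counts were put in place of a count of 0. The calculation was tested on simulated counts. No correction for free RNA was made and no doublet caller was run. Alternatives leave out cells with at least 5 B cell marker UMIs or at least 2500 genes, change the minimum to 20 or 100 UMIs, drop the top cell, weigh cells equally or rescale by a median of ratios.

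Named by rule were the label markers, list members reaching 100 CPM in both libraries, the 15 genes highest and 10 lowest against the compared clusters, and the 12 higher and 12 lower between genotypes, the last with UMIs in at least 10 cells and 20% of their highest cluster level. Left out of the last 2 sets were immunoglobulin and receptor segments, ribosomal protein, mitochondrially encoded, Gm-numbered, Rik and sex-linked genes. List members under 100 CPM were named after their values were seen. Not every gene selected by these rules is reported here, and no other took its place. The cluster, markers, lists and rules were chosen with earlier results of these data known. Gene positions are from GENCODE M21 (GRCm38), matched by symbol for 375 of 376 genes looked up, and promoter windows are from RefSeq GRCm38.p6. The reference may not be the annotation behind the counts. Python 3.11.15, numpy 2.4.6, scipy 1.17.1, pandas 2.3.3, matplotlib 3.10.9 and Biopython 1.88 were used.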

Additional observations from a re-analysis of the deposited data

Results flagged for a closer look

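The Gzma ratio pointed one way in cluster 11 and the other way in clusters 8 and 10. In cluster 11 it was at least 4.79 on the log2 scale against a floor of 3 counts (104 UMIs in 5XFAD and 0 in WT). In cluster 8 it was at most -4.70 against the same floor (0 UMIs in 5XFAD and 74 in WT). In cluster 10 it was -7.09, with an interval of -10.1 to -5.22 (2 UMIs in 5XFAD and 236 in WT). The difference between the clusters was not tested. In cluster 11, 99 of the 104 UMIs were in 1 cell, and 5 UMIs in 2 cells were left without it.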

How the results depend on the processing

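Counts of genes past 1 on the log2 scale depended most on the minimum of UMIs: 182 genes were higher and 241 lower in 5XFAD at 20 UMIs, and 13 were higher and 10 lower at 100 UMIs. Without the cells with at least 5 B cell marker UMIs, 30 genes were lower, and the log2 share ratio of the cluster was 1.07 with the libraries' totals kept. That setting also reversed Ccl5, to -0.084. At 2 UMIs or more, Trac was found in 48.6% of 5XFAD and 45.2% of WT cells, and Cd8a without Cd8b1 in 14.4% of 5XFAD cells. For these changes the cause was not tested beyond what fewer UMIs, cells or genes give by construction. Single genes were checked only if they were label markers, leading genes between libraries or genes set to be named at any value. Of their ratios, 217 stayed within the 95% interval of the main value, 9 left it and 1 reversed. Of the medians of gene lists, 109 stayed between the medians of their members' lower and upper interval bounds, but some turned in sign. That of the killer cell lectin-like genes did so as given above. Without the cells with B cell UMIs, T cell receptor signalling went from 0.05 to -0.07 and cytotoxic genes from -0.01 to 0.24. Without those of 2500 genes or more, chemokines and cytokines went from -0.001 to 0.17. With each cell counted equally, immediate early and dissociation genes went from -0.09 to 0.002. Without the 5XFAD cell with most Gzma, an alternative chosen after seeing the data, Gzmb was at 0.73. Genes under the minimum of UMIs once cells were left out, and lists then left with few measured members, such as the interferon list without the cells with B cell UMIs, gave no value. No paired analysis was possible because each genotype has 1 library, and leaving out a replicate was not possible for the same reason. A gene at 50 UMIs over both libraries has a wide interval, so differences below a log2 ratio of 1 were often not detectable at this depth.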
